A study of Solanum lycopersicum with 21 samples.

Results

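The early flavonoid and flavonol genes of tomato (Solanum lycopersicum) were followed across leaves of the cultivar M82. The set holds 7 loci of the 35039 IDs in the deposited count table, chosen as the rows of 7 fixed locus IDs. The list was chosen with earlier results of these data known, so called counts set beside the share of all IDs are description only. All 7 loci passed the filter on low counts that left 20373 IDs. They are CHS1 (Solyc09g091510.3, chromosome 9), CHS2 (Solyc05g053550.3, chromosome 5), CHI1 (Solyc05g010320.3, chromosome 5), F3H (Solyc02g083860.3, chromosome 2), F3'H (Solyc03g115220.3, chromosome 3), FLS (Solyc11g013110.2, chromosome 11) and MYB12 (Solyc01g079620.3, chromosome 1). The names come with the fixed list and the chromosome is the number in each ID, since the count table holds neither. In a RefSeq gene table of assembly SLM_r2.1, which does not pair these IDs with names, 6 of the 7 names (all but FLS) occur as symbols, each on the chromosome its ID gives.

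The depleted line, 6936, carries a silenced CCD7, a carotenoid cleavage dioxygenase of strigolactone synthesis, in the M82 background. It was sampled under irrigation, after recovery from 1 drought (recovery 1) and after recovery from 2 droughts (recovery 2). Wild-type M82 was sampled 24 h after a leaf spray with 5 µM of the synthetic strigolactone analogue GR24 5DS, without drought, and, unsprayed, under irrigation and at the same recoveries. Each of these 7 groups has 3 libraries, named by the replicate number in its label. Line 6936 is a single transgenic line, whose strigolactone content per the labels was lower by 70 to 80% in root tissue and exudates, with no value for leaves. The irrigated, recovery 1 and recovery 2 groups carry the time labels 0, 31 and 76 without a unit, and the sprayed group the label 24, so drought history and sampling time cannot be told apart. No group was labelled as sprayed without GR24, so GR24, the spraying itself and sampling time cannot be told apart either. A replicate held at least 3 leaves from different plants, and since 5 plants are named per condition, whether replicates shared plants is not settled by the labels. The p-values then measure only the spread between these libraries. CCD7 itself and the defining markers of leaf cells are paired with no ID in the sources used here, so neither silencing nor tissue was checked at the transcript level.

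Flavonoids are built from a phenylpropanoid precursor and malonyl units. Chalcone synthase (CHS) makes naringenin chalcone, chalcone isomerase (CHI) closes its ring to naringenin, and flavanone 3-hydroxylase (F3H) turns naringenin into a dihydroflavonol. Flavonoid 3'-hydroxylase (F3'H) adds the hydroxyl group that separates quercetin-type from kaempferol-type compounds, and flavonol synthase (FLS) makes the flavonols, whose glycosides absorb ultraviolet light and act as antioxidants in leaves. MYB12 is an R2R3-MYB transcription factor known in Arabidopsis and in tomato fruit as an activator of the early genes and of flavonol synthesis. Dihydroflavonols are also the entry to anthocyanins.

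The libraries held between 19267602 and 35433511 counts, and the lowest count of any of the 7 genes in any library was 47 (MYB12, depleted irrigated replicate 6). Levels are given as CPM, the usual depth-scaled unit of counts, after TMM scaling of the library sizes, and are listed by rising replicate number. These numbers are 3, 6 and 7 for depleted irrigated leaves, 12, 16 and 17 for depleted recovery 1, 8, 11 and 13 for depleted recovery 2, and 8, 9 and 11 for the sprayed wild type. They are 6, 7 and 14 for wild-type irrigated leaves, 1, 4 and 13 for wild-type recovery 1, and 8, 9 and 11 for wild-type recovery 2. A gene counts as changed where edgeR's quasi-likelihood test, Benjamini-Hochberg adjusted over the 20373 IDs, gave an adjusted p under 0.05. Whether the libraries of 2 groups overlap is given as a description of each gene only. How many of all IDs part in the same way was not counted. In a principal component analysis of all tested IDs, the first component (36.4% of the variance) had the depleted libraries at −90.9 to −11.1 and the unsprayed wild-type libraries at 30.5 to 101. Depleted recovery 1 replicate 16, at −11.1, lay nearest to the wild type, and sprayed replicate 9, at −25.1, lay among the depleted values. Since leaves are bulk samples, fewer cells that express a gene and less RNA per cell cannot be told apart.

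**Figure D1:**
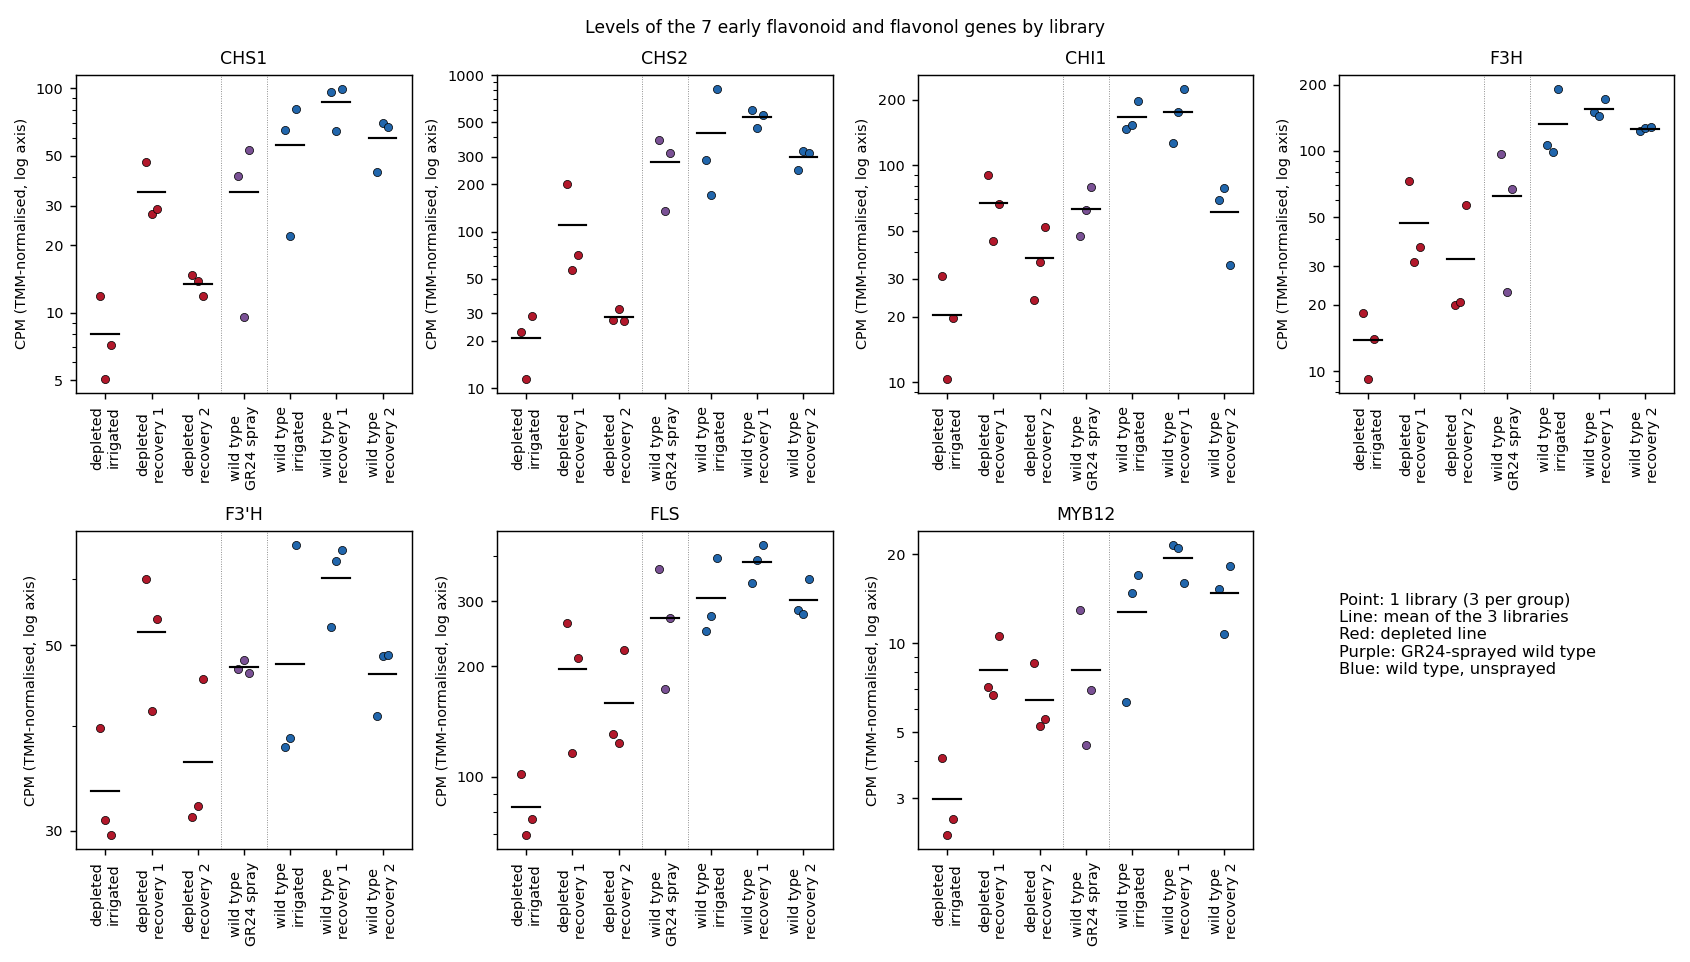
TMM-normalised CPM (log axis) of each of the 7 genes in the 21 libraries, with a panel per gene, a point per library and a line at the mean of each group of 3. Irrigated depleted leaves hold the lowest group mean in every panel, and the depleted recovery 1 points lie above them in every panel.

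In irrigated leaves, most of the pathway stood lower in the depleted line than in the wild type. Both chalcone synthases, CHI1, F3H, FLS and the regulator MYB12 fell, by 3.70-fold for FLS at the low end and 20.2-fold for CHS2 at the high end (log2 −4.33, and −3.45 without wild-type replicate 14). Of the 7 genes, 6 were called lower and 0 higher, where 16% of all IDs were called lower, 18.4% higher and 34.4% in either direction. The same 6 genes had no overlap between the 3 depleted and the 3 wild-type libraries, which was not counted over all IDs. F3'H was the exception and was not called (adjusted p = 0.0685 by edgeR's test). The median log2 fold change of the 7 genes was −2.80, against 0.034 over all IDs tested.

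CHS2 had 22.9, 11.5 and 28.7 CPM in depleted irrigated leaves, against 287, 172 and 815 CPM in wild-type irrigated leaves. The highest depleted library thus lay far under the lowest wild-type library, although the wild-type libraries themselves spread 4.73-fold. The log2 fold change was −4.33 ± 0.60 (SE, adjusted p = 8.04e-05 in edgeR), and −3.45 without wild-type replicate 14, the high library. CHS1, the other chalcone synthase, had 11.8, 5.08 and 7.17 CPM in the depleted line and 65.3, 21.9 and 80.8 CPM in the wild type. Its groups did not overlap either, and wild-type replicate 7 was the low wild-type library for both genes. The CHS1 log2 fold change was −2.80 ± 0.53 (SE, adjusted p = 0.000899 in edgeR). CHS1 and CHS2 are close in sequence and no source used here says how shared reads were counted, so their split is uncertain. Summed, the pair gave −4.05 ± 0.56 (log2, SE, adjusted p = 8.07e-05 in edgeR).

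CHI1, the isomerase after them, had 30.8, 10.4 and 19.7 CPM in depleted irrigated leaves and 147, 153 and 198 CPM in wild-type irrigated leaves, with no overlap. Its log2 fold change was −3.03 ± 0.42 (SE, adjusted p = 7.69e-05 in edgeR). F3H, which makes the dihydroflavonol, had 18.3, 9.24 and 14.0 CPM in the depleted line against 106, 98.6 and 191 CPM in the wild type. The lowest wild-type library thus lay well above the highest depleted one, with a log2 fold change of −3.25 ± 0.51 (SE, adjusted p = 0.00021 in edgeR).

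F3'H, the branch hydroxylase, had 39.8, 30.9 and 29.7 CPM in depleted irrigated leaves and 37.8, 38.7 and 65.9 CPM in wild-type irrigated leaves. The groups overlapped, since depleted replicate 3 lay above wild-type replicates 6 and 7, and wild-type replicate 14 stood apart as the high library. Its log2 fold change was −0.50 ± 0.21 (SE). It passed the threshold with upper-quartile scaling (adjusted p = 0.0423) and with DESeq2 (adjusted p = 0.0452), and its log2 fold change was −0.19 with wild-type replicate 14 left out. It also passed without depleted replicate 3 or without wild-type replicate 6.

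FLS, the last enzyme of the flavonol branch, had 102, 69.5 and 76.9 CPM in depleted irrigated leaves against 249.9, 275 and 394 CPM in wild-type irrigated leaves. All depleted libraries were lower than all wild-type ones, with a log2 fold change of −1.89 ± 0.32 (SE, adjusted p = 0.000334 in edgeR). MYB12, the regulator, had 4.11, 2.25 and 2.55 CPM in the depleted line and 6.35, 14.8 and 17.01 CPM in the wild type. These groups were also separate, though wild-type replicate 6 came close to the depleted range. The MYB12 log2 fold change was −2.10 ± 0.41 (SE, adjusted p = 0.000962 in edgeR). Leaving out any 1 of the 6 libraries gave 6 to 7 called genes. In these fits 23.3% to 31.7% of all IDs were called, against 34.4% with all libraries.

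**Figure D2:**
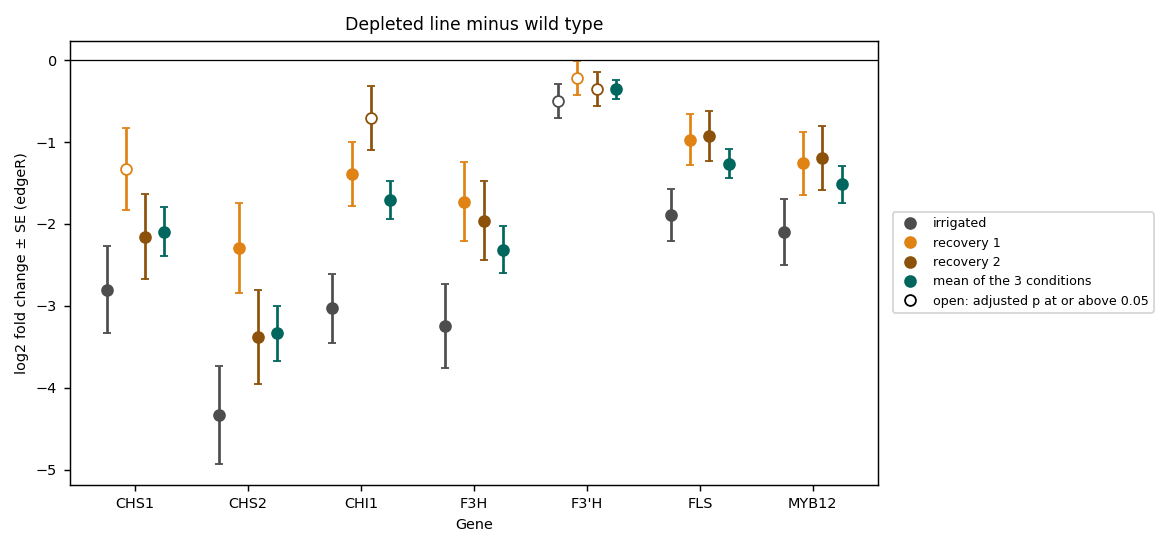
Log2 fold change of the depleted line minus the wild type for each gene (edgeR, bars are SE), under irrigation, at recovery 1, at recovery 2 and for the mean of the 3 conditions. All points lie below 0, CHS2 lies lowest in every comparison and F3'H nearest to 0, and open points missed an adjusted p under 0.05.

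After recovery from 1 drought, the depleted line was again lower for CHS2, CHI1, F3H, FLS and MYB12, with fold changes nearer to 0 than under irrigation, a difference that is tested as an interaction further on. These 5 of 7 genes were called lower and 0 higher, where 9.71% of all IDs were called lower, 9.92% higher and 19.6% in either direction. Of the 7, 6 had no overlap between the groups, a share not counted over all IDs. CHS2 had 70.8, 202 and 56.6 CPM in depleted recovery 1 leaves (replicates 12, 16 and 17), against 601, 559 and 460.1 CPM in wild-type recovery 1 leaves. Replicate 16 was the high depleted library, and even it lay under the lowest wild-type one. The CHS2 log2 fold change was −2.30 ± 0.55 (SE, adjusted p = 0.00855 in edgeR), and −3.08 without replicate 16.

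CHI1 had 66.2, 89.99 and 44.6 CPM in the depleted line and 126, 224 and 177 CPM in the wild type at recovery 1, a log2 fold change of −1.39 ± 0.39 (SE, adjusted p = 0.0205 in edgeR). F3H had 36.5, 73.0 and 31.2 CPM in the depleted line and 151, 171 and 144 CPM in the wild type, −1.73 ± 0.48 on the log2 scale (SE, adjusted p = 0.019 in edgeR). In both genes depleted replicate 16 held the highest depleted value and stayed under every wild-type library, and without it the values were −1.66 for CHI1 and −2.20 for F3H. FLS had 210.0, 262 and 116 CPM in the depleted line against 337, 426 and 389 CPM in the wild type, with a log2 fold change of −0.97 ± 0.31 (SE, adjusted p = 0.0354 in edgeR). Without replicate 16, also the high library for FLS, it was −1.23. MYB12 had 10.6, 7.14 and 6.71 CPM in the depleted line against 21.4, 16.0 and 21.0 CPM in the wild type, −1.26 ± 0.38 (log2, SE, adjusted p = 0.0299 in edgeR). Depleted replicate 16 was not the highest MYB12 library there.

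CHS1 had 29.0, 46.9 and 27.6 CPM in depleted recovery 1 leaves and 96.2, 99.1 and 64.7 CPM in the wild type. The groups did not overlap, yet the log2 fold change of −1.33 ± 0.50 (SE) missed the threshold (adjusted p = 0.0697 in edgeR), while DESeq2 passed it (adjusted p = 0.0335). CHS1 and CHS2 summed passed at −2.12 (log2, adjusted p = 0.00975 in edgeR). F3'H overlapped, with 53.8, 60.1 and 41.7 CPM in the depleted line and 52.6, 65.0 and 63.1 CPM in the wild type. Its log2 fold change was −0.21 ± 0.21 (SE, adjusted p = 0.491 in edgeR). The number of called genes was 1 without depleted replicate 12 or without depleted replicate 17, and 3 without any 1 of wild-type replicates 1, 4 and 13. Without depleted replicate 16 it was 4. The called share of all IDs was 9.69% without depleted replicate 12 and 11.7% without depleted replicate 17, against 19.6% with all libraries. Without wild-type replicates 1, 4 and 13 that share was 9.33%, 16.4% and 13.2%, and without depleted replicate 16 it was 22.1%.

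After recovery from 2 droughts, both chalcone synthases, F3H, FLS and MYB12 were lower in the depleted line, and CHI1 was not called. Of 7 genes, 5 were called lower and 0 higher, where 11.7% of all IDs were called lower, 14.9% higher and 26.6% in either direction. The same 5 had no overlap, again not counted over all IDs. CHS2 had 26.7, 31.9 and 27.3 CPM in depleted recovery 2 leaves, against 248, 320.1 and 325 CPM in wild-type recovery 2 leaves. Both groups were tight and far apart, with a log2 fold change of −3.38 ± 0.58 (SE, adjusted p = 0.000672 in edgeR). CHS1 had 11.9, 13.8 and 14.7 CPM in the depleted line and 42.3, 67.2 and 70.3 CPM in the wild type, −2.15 ± 0.52 (log2, SE, adjusted p = 0.00613 in edgeR). F3H had 56.8, 20.6 and 20.0 CPM in the depleted line against 123, 128 and 127 CPM in the wild type, where the wild-type libraries spanned only 1.05-fold. Depleted replicate 8 was the high F3H library of its group and stayed under the wild type, and the log2 fold change was −1.96 ± 0.48 (SE, adjusted p = 0.00728 in edgeR), and −2.64 without replicate 8.

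FLS had 222, 124 and 130.5 CPM in depleted recovery 2 leaves and 284, 345 and 277 CPM in the wild type, −0.93 ± 0.31 (log2, SE, adjusted p = 0.034 in edgeR). MYB12 had 5.53, 5.23 and 8.56 CPM in the depleted line and 15.2, 18.3 and 10.7 CPM in the wild type, −1.19 ± 0.39 (log2, SE, adjusted p = 0.0305 in edgeR). In both genes every depleted library lay below every wild-type one. CHI1 had 51.8, 36.0 and 23.9 CPM in the depleted line against 68.8, 34.6 and 78.8 CPM in the wild type, so the groups overlapped through wild-type replicate 9, the low one. Its log2 fold change was −0.71 ± 0.39 (SE, adjusted p = 0.186 in edgeR). F3'H had 45.6, 32.1 and 31.2 CPM in the depleted line and 41.2, 48.7 and 48.5 CPM in the wild type, with overlap and a log2 fold change of −0.35 ± 0.21 (SE, adjusted p = 0.222 in edgeR). The number of called genes was 3 without depleted replicate 11, without wild-type replicate 8 or without wild-type replicate 9. In these fits 17.6%, 21.7% and 16.8% of all IDs were called, against 26.6% with all libraries.

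Averaged over the 3 conditions, all 7 genes were lower in the depleted line, where 24.9% of all IDs were called lower, 27.6% higher and 52.5% in either direction. The mean difference fell in the order CHS2 with −3.34 ± 0.33, F3H with −2.31 ± 0.28, CHS1 with −2.10 ± 0.30, CHI1 with −1.71 ± 0.23, MYB12 with −1.52 ± 0.23, FLS with −1.26 ± 0.18 and F3'H with −0.35 ± 0.12 (log2, SE, edgeR). The adjusted p was 7.36e-07 for CHS2 and at most 0.019, the value of F3'H. Leaving out any 1 of the 18 unsprayed libraries left all 7 called, with F3'H at −0.42 to −0.25. In these fits 48.2% to 53.6% of all IDs were called. Over all 9 libraries per genotype, F3H was the gene whose ranges parted, at 9.24 to 73.0 CPM in the depleted line and 98.6 to 191 CPM in the wild type. CHS2 ranged over 11.5 to 202 CPM in the depleted line and 172 to 815 CPM in the wild type, and met only through depleted recovery 1 replicate 16 and wild-type irrigated replicate 7. The median log2 difference of the 7 genes was −1.71, against 0.023 over all IDs.

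**Figure D3:**
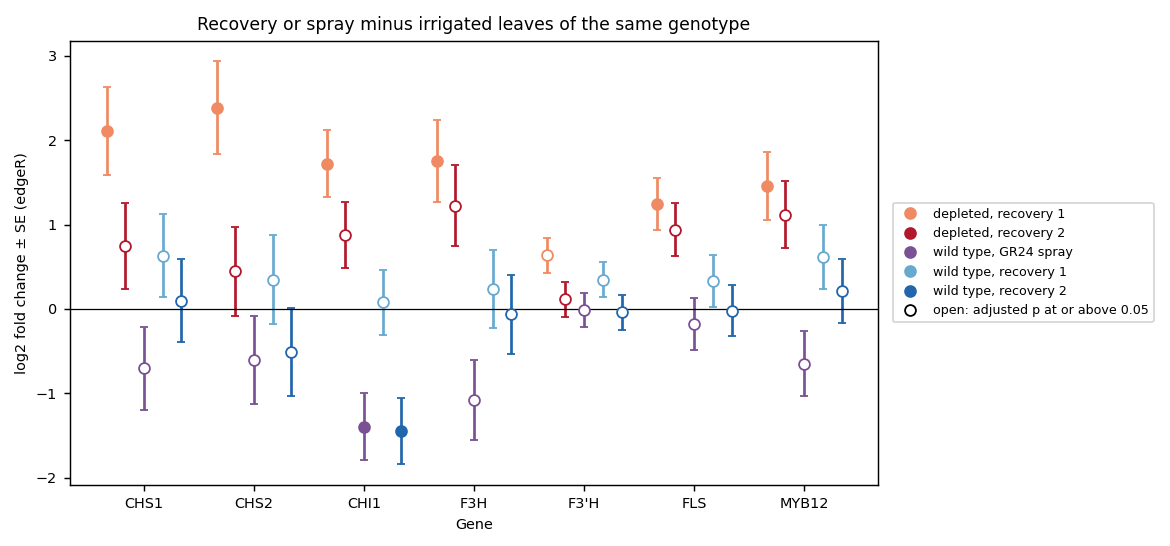
Log2 fold change (edgeR, bars are SE) of the recovery groups against the irrigated group of the same genotype, and of the GR24-sprayed wild type against the irrigated wild type, for each gene. The depleted recovery 1 values are the highest for every gene, and among wild-type comparisons only CHI1 has filled points, at recovery 2 and after the spray.

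Within the depleted line, the early genes stood higher after recovery from 1 drought than under irrigation. CHS1, CHS2, CHI1, F3H, FLS and MYB12 rose, 6 of 7 genes, where 5.58% of all IDs were called lower, 2.83% higher and 8.41% in either direction. The irrigated depleted libraries also enter the genotype comparison above. All 7 genes had no overlap between the 3 recovery 1 and the 3 irrigated libraries, whose values are given above, a share not counted over all IDs. CHS2 rose 5.22-fold, to 110.0 ± 80.4 CPM at recovery 1 against 21.0 ± 8.76 CPM under irrigation (SD, n = 3 each), with a log2 fold change of 2.39 ± 0.55 (SE, adjusted p = 0.0132 in edgeR). CHS1 rose 4.30-fold (2.10 ± 0.52, log2, SE, adjusted p = 0.0195 in edgeR) and F3H 3.38-fold (1.76 ± 0.49, adjusted p = 0.0341 in edgeR). CHI1 rose 3.30-fold (adjusted p = 0.0131 in edgeR), FLS 2.37-fold (adjusted p = 0.02 in edgeR) and MYB12 2.75-fold (adjusted p = 0.033 in edgeR). F3'H, at 0.63 ± 0.21 (log2, SE), missed the threshold (adjusted p = 0.0676 in edgeR). The median log2 fold change of the 7 genes was 1.72, against 0.013 over all IDs.

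These calls depended on single libraries and on the fit. Recovery 1 replicate 16 held the highest value of its group for CHS1, CHS2, CHI1, F3H, F3'H and FLS. Without it 0 of the 7 genes were called by edgeR, and the log2 fold changes were 1.60 for CHS2, 1.82 for CHS1, 1.29 for F3H and 1.55 for MYB12, with adjusted p between 0.0658 (MYB12) and 0.177 (F3H) among the 6 genes. The count was 3 without replicate 12, 0 without irrigated replicate 6 and 1 without irrigated replicate 7. The called share of all IDs also fell, from 8.41% to 3.53% without replicate 16 and 4.04% without replicate 12. That share was 3.6% without irrigated replicate 6 and 3.2% without irrigated replicate 7. Without replicate 17 (9.93%) or irrigated replicate 3 (12.2%) it rose, and 7 genes were called. The count of called genes was 0 with these 2 groups fitted alone, a fit that called 0 of all IDs. It was 3 by limma-voom, which called 7.77% of all IDs. DESeq2 called 7 of the genes, and 15% of the 18377 IDs it tested.

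At recovery 2 the depleted line had group means between those of its irrigated and recovery 1 groups in all 7 genes. Against irrigation, 0 of 7 genes were called by edgeR, where 6.04% of all IDs were called lower, 4.35% higher and 10.4% in either direction. The unadjusted edgeR p lay under 0.05 for 4 of the 7 genes and for 5411 of the 20373 IDs. DESeq2 called 2, FLS and MYB12, and 15.8% of the 19952 IDs it tested. Without irrigated replicate 3 edgeR also called both, and 12.9% of all IDs. CHS1, F3H, FLS and MYB12 did not overlap between the groups, with log2 fold changes of 0.75 ± 0.51, 1.22 ± 0.48, 0.94 ± 0.31 and 1.12 ± 0.40 (SE). CHS1 was barely apart, at 11.855 CPM in recovery 2 replicate 8 and 11.815 CPM in irrigated replicate 3. The F3H value was 0.55 without recovery 2 replicate 8. CHS2 stood close to its irrigated level, at 28.6 ± 2.86 CPM against 21.0 ± 8.76 CPM under irrigation (SD, n = 3 each), and overlapped. Against recovery 1, all 7 log2 fold changes were negative and 0 were called, as for all IDs (0%). There the unadjusted edgeR p lay under 0.05 for 4 of the 7 genes and for 1749 of the 20373 IDs. DESeq2 called 1 of the 7 genes, and 0.389% of the 6942 IDs it tested. That gene was CHS2, at −1.94 ± 0.54 (log2, SE, adjusted p = 0.421 in edgeR, DESeq2 adjusted p = 0.0486), and −1.15 without recovery 1 replicate 16.

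In the wild type, recovery from 1 drought changed none of the 7 genes by edgeR, as none of all IDs (0%). The unadjusted edgeR p lay under 0.05 for 0 of the 7 genes and for 1380 of the 20373 IDs. DESeq2 called 0 of the 7, and 0.192% of the 18772 IDs it tested. The log2 fold changes lay between 0.081 ± 0.38 for CHI1 and 0.63 ± 0.49 for CHS1 (SE), and all 7 genes overlapped between the groups.

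After 2 droughts CHI1 was the gene that fell in the wild type, 1 of 7, where 2.81% of all IDs were called lower, 2.09% higher and 4.89% in either direction. It had 60.8 ± 23.2 CPM at recovery 2 against 166 ± 27.9 CPM under irrigation (SD, n = 3 each), with no overlap and a log2 fold change of −1.45 ± 0.39 (SE, adjusted p = 0.0425 in edgeR). The call was lost without any 1 of the 6 libraries (log2 −1.68 to −1.17), and without the low-count filter (adjusted p = 0.0591). With 1 library left out, the called share of all IDs ran from 0% (recovery 2 replicate 9) to 4.78% (irrigated replicate 14). The other 6 genes overlapped, from −0.51 ± 0.52 for CHS2 to 0.21 ± 0.38 for MYB12 (log2, SE). Against recovery 1, CHI1 stood at −1.53 ± 0.39 (log2, SE, adjusted p = 0.0959 in edgeR; DESeq2 adjusted p = 0.0101). There 0 of 7 genes were called by edgeR and 1 by DESeq2, which called 3.11% of the 19952 IDs it tested. Of the 7 genes 4 did not overlap, a share not counted over all IDs. Of all IDs, edgeR called 0.216% lower, 0.0884% higher and 0.304% in either direction. The unadjusted edgeR p lay under 0.05 for 1 of the 7 genes and for 2895 of the 20373 IDs.

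CHI1 stood lower in GR24-sprayed than in unsprayed irrigated wild-type leaves, the 1 gene of 7 called lower, with 0 called higher. Of all IDs, 13.3% were called lower, 14.4% higher and 27.8% in either direction. The spray and the wild-type recovery comparisons share the irrigated wild-type libraries. CHI1 had 47.1, 62.4 and 79.7 CPM in sprayed leaves (replicates 8, 9 and 11) against 147, 153 and 198 CPM in irrigated wild-type leaves. The groups were apart, with a log2 fold change of −1.40 ± 0.39 (SE, adjusted p = 0.0141 in edgeR), and without sprayed replicate 8 the adjusted p was 0.0549. F3H had 97.2, 23.0 and 67.03 CPM in sprayed leaves and 106, 98.6 and 191 CPM in irrigated wild-type leaves. It did not overlap and was not called, at −1.08 ± 0.47 (log2, SE, adjusted p = 0.0964 in edgeR), but passed without replicate 8 (adjusted p = 0.0389). Without replicate 9, its low library, the log2 value was −0.69 (adjusted p = 0.277), and without wild-type replicate 14 it was −0.72 (adjusted p = 0.32). MYB12, with 12.9, 4.55 and 6.94 CPM in sprayed leaves and a log2 fold change of −0.65 ± 0.38 (SE, adjusted p = 0.217 in edgeR), likewise passed only without replicate 8 (adjusted p = 0.0412). Without replicate 9 the MYB12 value was −0.36 (adjusted p = 0.532).

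Sprayed replicate 9 was the lowest library of its group for CHS1, CHS2, F3H, FLS and MYB12. CHS1 had 40.6, 9.56 and 52.8 CPM in the sprayed replicates 8, 9 and 11, and CHS2 had 385, 135 and 316 CPM. The CHS1 range was 5.08 to 46.9 CPM over the 9 depleted libraries and 21.9 to 99.1 CPM over the 9 unsprayed wild-type libraries. Sprayed replicate 8 lay inside both ranges, and sprayed replicate 9 inside the depleted range only. For CHI1 and F3'H replicate 9 was not the lowest. The log2 fold changes against irrigated wild type were −0.71 ± 0.50 for CHS1 and −0.61 ± 0.53 for CHS2 (SE, not called), and −0.26 and −0.28 without replicate 9. FLS had 368, 173 and 269.9 CPM in sprayed leaves, −0.18 ± 0.31 (log2, SE, adjusted p = 0.696 in edgeR), and F3'H had 46.9, 48.0 and 46.3 CPM, −0.012 ± 0.21 (adjusted p = 0.972 in edgeR). F3'H varied least of the 7 genes between the sprayed libraries. CHI1 kept its call without replicate 9, at −1.39 (log2, adjusted p = 0.0372 in edgeR).

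Whether the response to recovery differed between the genotypes was tested as an interaction, the recovery response of the depleted line minus that of the wild type. At recovery 1, 0 of 7 genes passed, where 1.25% of all IDs were called lower, 0.255% higher and 1.51% in either direction. All 7 values were above 0, among them CHS2 with 2.04 ± 0.75 and CHI1 with 1.64 ± 0.55 (log2, SE). The adjusted p in edgeR was 0.232 for CHS2 and 0.175 for CHI1. An unadjusted edgeR p under 0.05 was found for 4 of the 7 genes and for 2431 of the 20373 IDs. DESeq2 called 0 of the 7, and 4.58% of the 16802 IDs it tested. The CHS2 value was 1.25 without depleted recovery 1 replicate 16 and 1.15 without wild-type irrigated replicate 14. Without replicate 16, F3H was at 1.05, against 1.52 ± 0.67 (log2, SE) with all libraries. At recovery 2, CHI1 passed, 1 of 7 genes, where 3.82% of all IDs were called lower, 3.12% higher and 6.95% in either direction. CHI1 averaged 37.2 ± 14.0 CPM at recovery 2 against 20.3 ± 10.2 CPM under irrigation in the depleted line, and 60.8 ± 23.2 CPM at recovery 2 against 166 ± 27.9 CPM under irrigation in the wild type (SD, n = 3 each). Its interaction was 2.32 ± 0.56 (log2, SE, adjusted p = 0.0198 in edgeR). The adjusted p was 0.056 without wild-type recovery 2 replicate 9 and 0.0526 without depleted irrigated replicate 7.

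Ordered by mean CPM, wild-type recovery 1 was the highest group for each of the 7 genes and depleted irrigation the lowest. For CHS1 the order of means was wild-type recovery 1, recovery 2 and irrigated, depleted recovery 1, sprayed wild type, depleted recovery 2 and depleted irrigated. Only the last neighbours were apart, barely, at 11.855 CPM (depleted recovery 2 replicate 8) and 11.815 CPM (depleted irrigated replicate 3). MYB12 had the same order, again with a gap only between depleted recovery 2 and depleted irrigation. CHS2, F3H and FLS shared another order, wild-type recovery 1, irrigated and recovery 2, then the sprayed wild type, then depleted recovery 1, recovery 2 and irrigated. In it F3H had gaps between wild-type recovery 2 and the sprayed group and between the last neighbours, CHS2 a gap between depleted recovery 1 and recovery 2, and FLS a gap between the last neighbours. CHI1 differed in having wild-type recovery 2 in the fifth place, below depleted recovery 1 and the sprayed group, with its gap after wild-type irrigation. For F3'H no neighbours in the order were apart, and depleted recovery 1 had the next-highest mean.

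**Figure D4:**
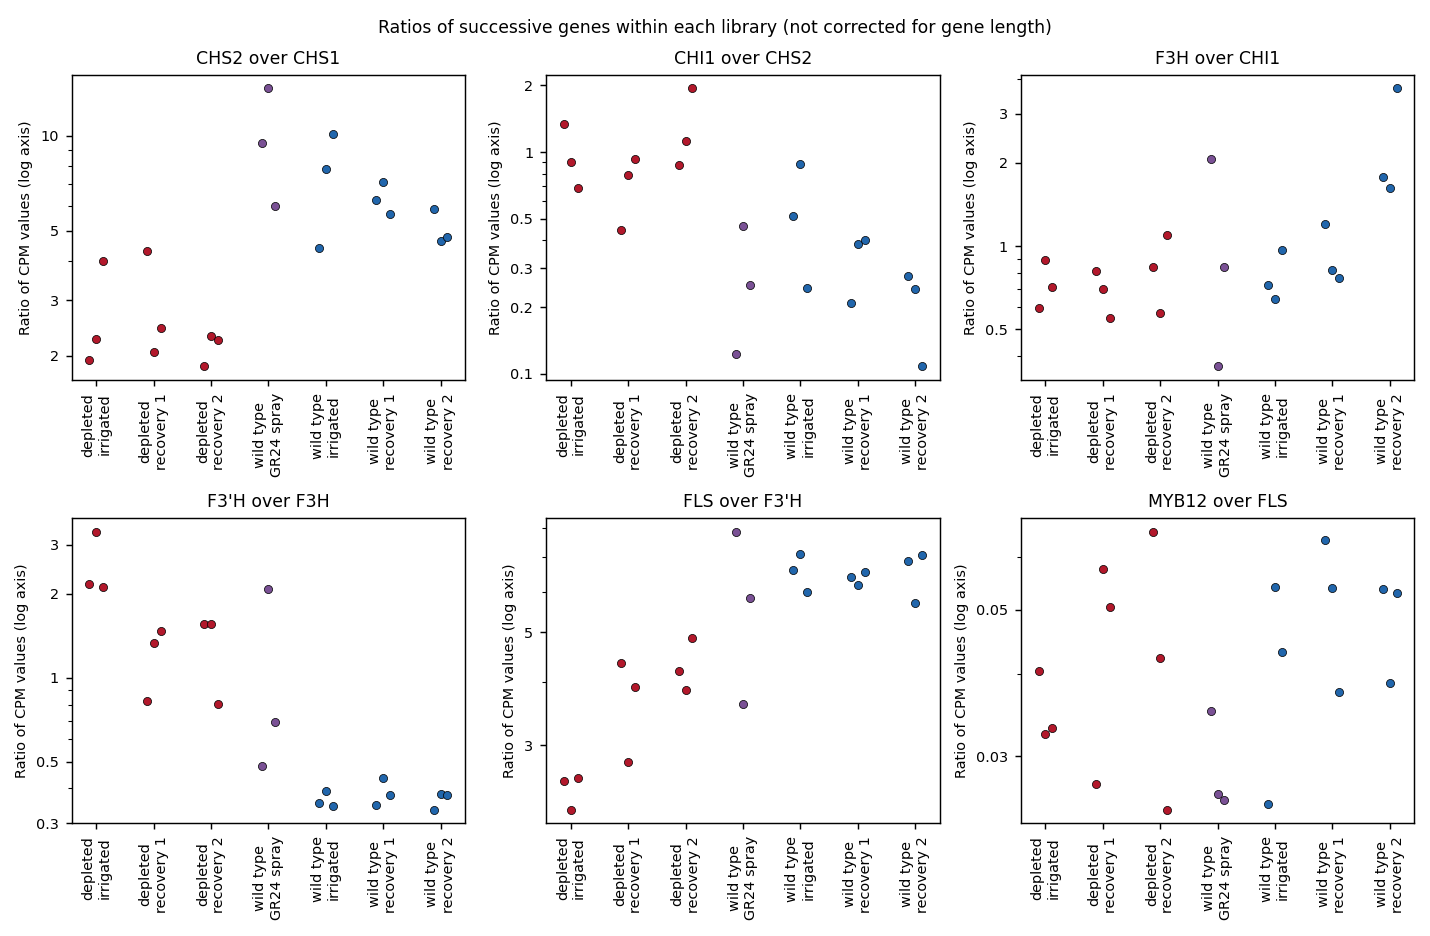
Ratio of the CPM values of successive genes within each library (log axis), with a panel per ratio and a point per library. The ratios of CHS2 to CHS1, F3'H to F3H and FLS to F3'H part all 9 depleted from all 9 unsprayed wild-type libraries, and the ratio of MYB12 to FLS does not.

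The genes did not shift in proportion between the genotypes. Ratios of successive genes were formed within each library, so that no scaling enters. They are not corrected for gene length, so only their differences between genotypes are read. They were added after the values of the genes were seen, so their p-values are not independent of the gene differences given above. The ratio of CHS2 to CHS1 was 1.86 to 4.32, median 2.26, over 9 depleted libraries and 4.40 to 10.1, median 5.87, over 9 unsprayed wild-type libraries, without overlap. This ratio rests on the split of reads between the pair, which is uncertain. Its difference was −1.29 on the log2 scale, and an exact two-sided permutation test within the 3 conditions gave p = 0.00025, the smallest its 8000 arrangements allow (adjusted over the 6 ratios, 0.0005). The ratio of F3'H to F3H was 0.804 to 3.35, median 1.56, in the depleted line and 0.336 to 0.437, median 0.379, in the wild type, with a log2 difference of 2.05 (exact permutation test, adjusted p = 0.0005). The ratio of FLS to F3'H was 2.25 to 4.86, median 3.86, in the depleted line and 5.71 to 7.09, median 6.56, in the wild type, −0.95 on the log2 scale (exact permutation test, adjusted p = 0.0005).

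CHI1 relative to CHS2 was higher in the depleted line by 1.59 (log2, exact permutation test, adjusted p = 0.0015), with overlapping ranges. F3H relative to CHI1 differed by −0.65 (log2, exact permutation test, adjusted p = 0.0102), also with overlap. By condition that difference was −0.085 under irrigation, −0.42 at recovery 1 and −1.45 at recovery 2, and the conditions were not tested against each other. MYB12 relative to FLS differed by −0.20 (log2, exact permutation test, adjusted p = 0.35), with ranges of 0.0249 to 0.0656, median 0.0404, in the depleted line and 0.0254 to 0.0636, median 0.0529, in the wild type. Sprayed replicate 9 fell inside the depleted range for F3'H to F3H, at 2.09, and for FLS to F3'H, at 3.61. For CHS2 to CHS1 it lay above every unsprayed library, at 14.1.

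**Figure D5:**
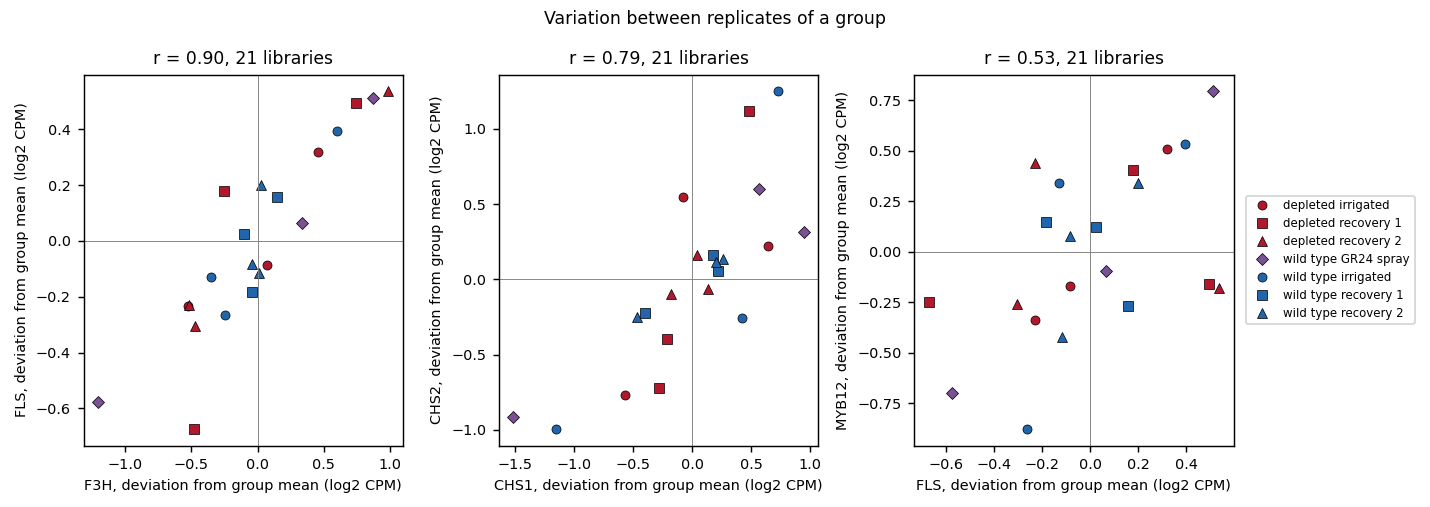
Deviation of each library from its group mean (log2 CPM) for F3H and FLS, CHS1 and CHS2, and FLS and MYB12, over 21 libraries in 7 groups. The F3H and FLS points lie along a line (r = 0.90), while FLS and MYB12 scatter more (r = 0.53).

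Replicates of a group also varied together in some of these genes. Group means were subtracted from log2 CPM and the 21 pairs of genes were correlated over the 21 libraries, with permutation within groups and p-values adjusted over the 21 pairs. F3H and FLS were the closest pair, with Pearson r = 0.90 (permutation p = 0.00018, adjusted 0.00378) and Spearman rho = 0.88 (permutation p = 0.0002, adjusted 0.0042). Without the 2 libraries farthest out in F3H, r was 0.86. CHS1 and CHS2 gave Pearson r = 0.79 (permutation p = 0.00158, adjusted 0.0111) and Spearman rho = 0.81 (permutation p = 0.00079, adjusted 0.00829), and r = 0.71 without 2 libraries. The uncertain split of reads between this pair enters its correlation too. F3'H and FLS gave Pearson r = 0.75 (permutation p = 0.00147, adjusted 0.0111) and Spearman rho = 0.76 (permutation p = 0.00234, adjusted 0.0164), and r = 0.69 without 2 libraries.

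Of the 21 pairs, 7 had an adjusted p under 0.05 for Pearson's r, and MYB12 was in none of them with all libraries kept. Its closest partner was FLS, with Pearson r = 0.53 (permutation p = 0.0529, adjusted 0.111) and Spearman rho = 0.56 (permutation p = 0.0348, adjusted 0.073), and r = 0.54 without 2 libraries. MYB12 and CHI1 had r = −0.090 (permutation p = 0.706, adjusted 0.706). The other 4 pairs that passed were CHS2 with F3H, F3H with F3'H, CHI1 with F3'H and CHS1 with F3H. Their adjusted p lay above 0.05 in 4, 6, 10 and 14 of the 21 repeats that each left out 1 library, and that of CHS1 and CHS2 in 1 (without sprayed replicate 9). F3H with FLS and F3'H with FLS kept theirs under 0.05 in all 21. Pairs that came under 0.05 with 1 library left out were FLS with MYB12 in 1 repeat (r = 0.62, without depleted recovery 2 replicate 13), CHS2 with FLS in 2, and CHI1 with F3H and CHI1 with FLS in 1 each. Libraries share depth and scaling across genes, and the part of that in these correlations was not tested.

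Over all 21 libraries, each gene was compared with 15385 other IDs of at least 1 mean log2 CPM by Pearson's r, as a description of likeness that includes the difference between genotypes. FLS and F3H were more like each other (r = 0.96) than like any of these IDs. CHS1 was most like F3H (0.92) and CHS2 (0.91), again above every other ID. The nearest IDs outside the 7 were Solyc09g091560.3 (r = 0.91) and Solyc08g061480.3 (r = 0.90) for CHS1, Solyc01g010250.3 (r = 0.94) and Solyc02g079580.3 (r = 0.94) for CHS2 and Solyc01g007070.3 (r = 0.95) and Solyc02g079580.3 (r = 0.95) for F3H, so that Solyc02g079580.3 was near to both CHS2 and F3H. For FLS they were Solyc08g079440.1 (r = 0.94) and Solyc02g090130.3 (r = 0.94), for CHI1 Solyc01g103230.3 (r = 0.89) and Solyc04g082060.3 (r = 0.88), for F3'H Solyc01g094330.3 (r = 0.82) and Solyc07g042000.3 (r = 0.82) and for MYB12 Solyc03g116330.3 (r = 0.92) and Solyc03g059150.3 (r = 0.92). The member most like MYB12 was FLS (0.88), and 22 other IDs were at least as like it. For CHI1 the closest member was F3H (0.83), with 23 other IDs at least as like it, and for F3'H it was FLS (0.80), with 4. No source used here annotates these IDs.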

How the data were processed

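RNA of tomato leaves was sequenced in 21 libraries. The kit named in the labels' protocols, NEBNext Ultra RNA, does not mark strand, so a gene's reads and those of an antisense partner cannot be told apart. Reads were paired. The submitters' processing notes name HISAT2 and HTSeq, while versions, settings, genome build and handling of reads shared by paralogs are not given in any source used here. The authors deposited whole-number counts per ID, not normalised. Another 6 columns fit the labels of no sample and stayed out. Of the IDs, 0 matched the RefSeq gene table.

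The tests used edgeR 4.0.16 in R 4.3.3: filterByExpr on the 7 groups, TMM factors, and 1 robust quasi-likelihood fit (glmQLFit, glmQLFTest) with a mean per group over all 21 libraries and 14 residual degrees of freedom, giving 13 comparisons. Standard errors come from the log2 fold change and F. Correlations used log2 CPM with a prior count of 2. With all libraries kept they used 100000 permutations, and the repeats that left out 1 library used fewer. Alternatives were DESeq2 1.42.0, limma-voom (limma 3.58.1), upper-quartile factors, no filter, the compared groups alone, a replicate block, CHS1 and CHS2 summed, and each library left out. Replicate pairs differed beyond sampling noise (chi-square per degree of freedom 28.9 to 334 over 21 pairs), so each library counts once. The named genes are the 7 members and, by rule, the 2 IDs most like each. Members and lists were chosen with earlier results of these data known, and the ratios were added after the values were seen. No member had under 47 counts in a library, and counting error was not compared with replicate spread gene by gene.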

Additional observations from a re-analysis of the deposited data

Results flagged for a closer look

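CHI1 was marked because its response to recovery from 2 droughts differed between the genotypes by the interaction test, at 2.32 ± 0.56 (log2, SE, edgeR adjusted p = 0.0198). It stood lower at recovery 2 than under irrigation in the wild type (−1.45 ± 0.39, log2, SE, edgeR adjusted p = 0.0425), with all 3 recovery libraries below all 3 irrigated ones. That wild-type call was lost without any 1 of these 6 libraries. In the depleted line CHI1 was not called (0.87 ± 0.39, log2, SE, edgeR adjusted p = 0.165). Wild-type recovery 2 replicate 9, the lowest of its group, took the interaction to 2.04 when left out, with an adjusted p of 0.056. Without depleted irrigated replicate 7 the interaction was 2.30, with an edgeR adjusted p of 0.0526.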

How the results depend on the processing

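Under irrigation the number of called genes was 6 to 7 when 1 library was left out (23.3% to 31.7% of all IDs) and 6 with the replicate block (31.3%). Averaged over conditions it was 7 in every fit run, where 41.9% (no filter) to 55.3% (DESeq2) of the IDs tested were called. At recovery 1 the number was 1 to 4 with 1 library left out, and at recovery 2 it was 3 to 4, and 3 with the replicate block, in which F3H (adjusted p = 0.0689) and FLS (0.121) lost their calls. That block at recovery 2 called 7.45% of all IDs, against 26.6% in the main fit. In the irrigated and recovery 2 comparisons 2 replicate numbers recur in both genotypes, with no label that pairs them, and the paired fit had 1 residual degree of freedom. For depleted recovery 1 against irrigation the number was 0 to 7 with 1 library left out, where 3.2% to 12.2% of all IDs were called. It was 0 with the compared groups alone (0% of all IDs) and 3 by limma-voom (7.77%). For depleted recovery 2 against irrigation it was 0 to 2 with 1 library left out (4.53% to 12.9% of all IDs) and 2 by DESeq2 (15.8%). DESeq2 also called 1 gene between the recoveries of the depleted line (0.389% of the IDs it tested) and 1 between those of the wild type (3.11%). For wild-type recovery 2 against irrigation it was 0 with any 1 library left out (0% to 4.78% of all IDs) and 0 without the filter (2.84%). With 1 library left out it was 1 to 2 for the spray, where 17.5% to 25.6% of all IDs were called. For the interaction at recovery 2 it was 0 to 1, where 2.39% to 9.39% were called. The cause was not tested.

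Signs turned only for values that were not called. For wild-type recovery 2 against irrigation, FLS was 0.013 with the compared groups alone, 0.014 without the filter and 0.0078 with upper-quartile factors, F3'H was 0.0067 by limma-voom, and the CHS pair summed was −0.43 (log2). After the spray F3'H was 0.039 by limma-voom. With 1 library left out, the log2 ranges at wild-type recovery 2 were CHS1 −0.29 to 0.46, CHS2 −0.89 to 0.37, F3H −0.24 to 0.30, F3'H −0.18 to 0.27, FLS −0.15 to 0.20, MYB12 −0.11 to 0.48; at wild-type recovery 1, CHS2 −0.029 to 1.23, CHI1 −0.13 to 0.27; after the spray, CHS2 −0.98 to 0.28, F3'H −0.15 to 0.30, FLS −0.47 to 0.059. For F3'H they were −0.081 to 0.26 at depleted recovery 2, and −0.021 to 0.43 and −0.15 to 0.30 for the interactions at recovery 1 and 2. The within-group r ranged over −0.28 to 0.039 for CHI1 and MYB12 and −0.054 to 0.47 for CHS1 and MYB12. Without 1 library, all 6 ratio results kept their side of the threshold.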
